A study of Mus musculus with 12 samples.

Results

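The genes described here are the S100 genes, the annexins and the 2 *Ahnak* genes, 35 of the 54532 genes in the count table. They were chosen by gene name alone: every gene named S100 (including the S100 binding protein *S100pbp* and the pseudogene *S100a11-ps*), every gene named Anxa (including *Anxa11os*, the antisense RNA of *Anxa11*), *Ahnak* and *Ahnak2*. Of the 35, 20 carry an S100 name, 13 an annexin name and 2 an *Ahnak* name. No measured value entered the rule, but the family was picked out with earlier results of these data known.

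RNA was sequenced from whole kidneys of 12 mice in 4 groups of 3, all 18 days old and labelled C57BL/6. The noncystic mice were *Pkd1* RC/F without Cre, that is *Pkd1* RC/+ in function, and carried *Pkd2* +/+ (mice 19 to 21) or *Pkd2* Δ17/Δ17 (mice 22 to 24). The cystic mice carried Ksp-Cre with *Pkd1* RC/F, which makes the tubules *Pkd1* RC/-, and again *Pkd2* +/+ (mice 25 to 27) or *Pkd2* Δ17/Δ17 (mice 28 to 30). RC is a missense allele of *Pkd1* that lowers mature polycystin-1, F is a floxed allele, and Δ17 is a germline deletion of the miR-17 binding motif from the 3′-UTR of *Pkd2*. All 12 mice carried the RC allele, controls included, so none was wild type for *Pkd1*. Ksp-Cre acts in kidney tubule epithelium, so the floxed allele was lost in tubules only, whereas RNA came from every cell of the organ.

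S100 proteins are small calcium sensors with EF hands that work mostly as dimers and bind target proteins when calcium rises. Annexins bind acidic membrane phospholipids in a calcium-dependent manner, and several pair with an S100 protein: annexin A2 with S100A10 and annexin A1 with S100A11. AHNAK is a giant scaffold protein that the annexin A2 and S100A10 complex anchors under the plasma membrane, and *S100g* (calbindin-D9k) buffers calcium in the distal tubule during calcium reabsorption.

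Between 18800307 and 24453033 reads per mouse were counted on genes. CPM below are counts per 1e6 reads after TMM scaling, a correction for library composition that changed library sizes by factors of 0.933 to 1.08, at most 0.972 for noncystic and at least 1.04 for cystic mice. *Pkd2* read 194 to 219 CPM in noncystic and 213 to 233 CPM in cystic *Pkd2* +/+ mice, against 271 to 286 and 307 to 337 CPM with the deletion. The 6 proximal tubule markers summed to 2530 CPM or more in every mouse, so the labelled tissue carried the markers of its main epithelium. *Xist* was at 431 to 811 CPM in 6 mice (1, 2, 2 and 1 of 3 in the order of the groups above) and at 5.47 to 7.74 CPM in the other 6, so the sexes were not balanced between groups.

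Most of the S100 genes lie together on chromosome 3 (GRCm38). 13 of them span 579.8 kb at chr3:90511034-91090803, from *S100a1* to *S100a7l2*, and *S100a11* and *S100a10* lie apart at chr3:93520488-93564643. *S100g* is on the X chromosome (chrX:162961992-162964599, minus strand), *Anxa2* on chromosome 9 (chr9:69453620-69491795, plus strand), and *Ahnak* (chr19:8989284-9076914, plus strand) and *Anxa1* (chr19:20373428-20390944, minus strand) both on chromosome 19.

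Sequence is shown first where it carries a feature that can be set beside the changes. The promoters of the set (250 bases before to 50 after a RefSeq start, GRCm38.p6) were searched on both strands for the AP-1 motif TGANTCA, the site of the stress-responsive Jun and Fos factors, and for the TATA box TATAAA. Of 27 genes with a promoter entry, 5 held TGANTCA and 9 held TATAAA, in 5 and 9 of their 35 promoters. Genes without an entry, among them *S100a14*, *S100a10*, *Anxa3* and *Anxa6*, were not searched. Among all 32851 promoters 7.81% held TGANTCA and 13.6% held TATAAA. The AP-1 windows of the 3 genes that are called in the disease comparison below are printed with the motif in capitals, and the position counts from the RefSeq start. The remaining carriers, *Anxa10* and *S100a7l2*, had at most 1 read and 0 reads in any mouse. Other called genes that were searched, among them *Ahnak*, *Ahnak2* and *Anxa1*, held no TGANTCA. The window of *S100a16* belongs to the second of its listed promoters, which lies inside the gene as annotated.
S100a11, chr3:93520349-93520377, plus strand, motif at -136: cagagacctgtTGAGTCAcagggactaca
S100a11, chr3:93520447-93520475, plus strand, motif at -38: cgggcacagccTGAGTCAggctgaggggc
Anxa2, chr9:69453577-69453605, plus strand, motif at -95: tccaagttggaTGAGTCAcccagcagggt
S100a16, chr3:90540943-90540971, plus strand, motif at -192: gaccaccttttTGAATCAgatggtgtgtg

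The TATA windows of the 3 called genes that have one are given in the same way. *S100a3*, *S100a4*, *S100a8*, *S100a9*, *S100a7l2* and *Anxa10*, none of them called, also held TATAAA. The box of *S100g* lay at the RefSeq start itself, and those of *Anxa2* and *Anxa1* lay upstream of their RefSeq starts. The boxes of *Anxa2* and *Anxa1* lie inside the gene spans given above. Neither motif overlapped the other in these windows.
S100g, chrX:162964583-162964610, minus strand, box at 1: tctgtaaagacTATAAAagagcccctcc
Anxa2, chr9:69453655-69453682, plus strand, box at -17: gatggggcgggTATAAAagccccaccca
Anxa1, chr19:20390687-20390714, minus strand, box at -32: agttcatatccTATAAAatcaggagtcc

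The deletion in these mice removes a miR-17 motif from *Pkd2*, so the 3′-UTRs of the set were searched for the same 7 bases, GCACTTT, that pair with the miR-17 seed (bases 2 to 8 of the mature miRNA, in capitals in the first sequence). Of 31 genes with a 3′-UTR in the GENCODE M21 annotation of GRCm38, 2 held a match (6.45%), against 12.2% of 21130 protein-coding genes. They were *Ahnak*, at nucleotide 794 of an 872-nucleotide 3′-UTR, and *Anxa1*, at nucleotide 22 of 500. The Δ17 deletion lies in *Pkd2* and does not touch these 2 sites.
miR-17-5p: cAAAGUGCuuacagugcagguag
Ahnak, chr19:9019118-9019124, plus strand: ggaaatgtctgGCACTTTaatggcaaatt
Anxa1, chr19:20376470-20376476, minus strand: ttggatttgatGCACTTTtagaaaagggt

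Levels were compared between genes as TPM (reads divided by exon length and scaled to the same sum in each mouse). In noncystic *Pkd2* +/+ kidney *S100g* stood first at 6690 ± 922 TPM (SD, n = 3), far above *S100a1* (1010 ± 97.6 TPM) and *S100a11* (860 ± 129 TPM). The last 2 overlapped, as did the next pair, *Anxa5* (315 ± 31.6 TPM) and *S100a10* (274 ± 28.3 TPM). *S100a16*, *Anxa6*, *Anxa2*, *S100a6* and *S100a13* followed with means from 203 down to 114 TPM, and of these neighbours *Anxa2*, *S100a6* and *S100a13* overlapped. *S100a14* was only 17th of the 35 at 13.8 ± 2.75 TPM.

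In cystic *Pkd2* +/+ kidney the order changed at the top. *S100a11* was first at 3190 ± 275 TPM, *S100g* second at 1850 ± 399 TPM and *S100a1* next at 1280 ± 13.6 TPM, with no overlap between these neighbours. TPM carry no TMM scaling, so they rank genes within a group and do not measure the change of a gene between groups. *S100a1*, for example, averaged 274 CPM in noncystic and 278 CPM in cystic *Pkd2* +/+ kidney. *S100a14* moved to 10th at 239 ± 20.4 TPM. The ratio of *S100g* to *S100a11* within a mouse, which is free of the scaling between libraries, ran from 7.22 to 8.23 in the noncystic and from 0.436 to 0.659 in the cystic *Pkd2* +/+ mice. It ran from 6.50 to 7.19 in noncystic and from 0.692 to 1.36 in cystic *Pkd2* Δ17/Δ17 mice.

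**Figure D1:**
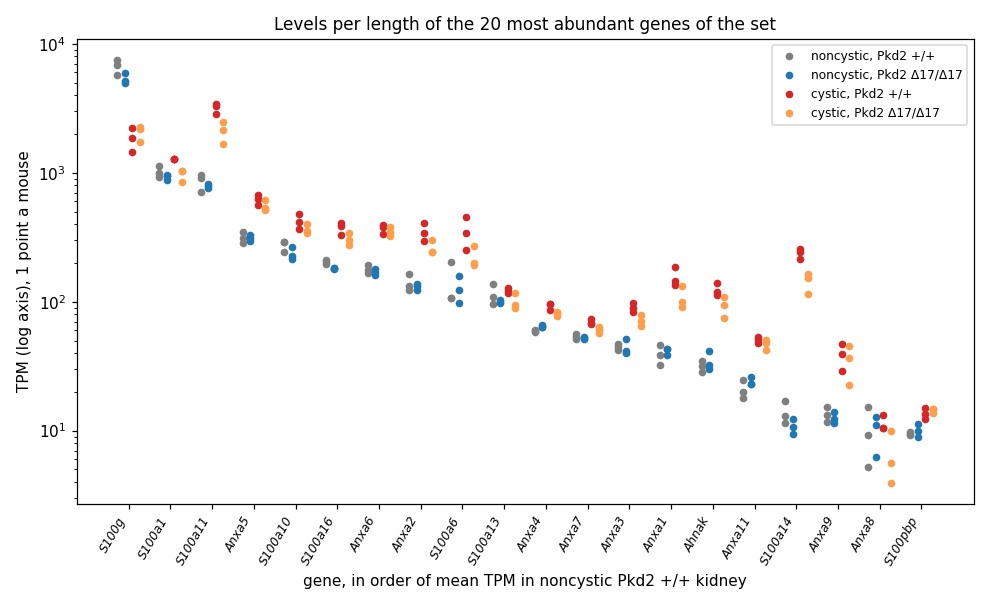
TPM in each mouse (log axis, 1 point a mouse) for the 20 genes of the set with the highest mean in noncystic Pkd2 +/+ kidney, in that order along the x axis and coloured by group. S100g stands first in both noncystic groups, S100a11 passes it in all 3 cystic Pkd2 +/+ mice but not in every cystic Pkd2 Δ17/Δ17 mouse (ratios of S100g to S100a11 from 0.692 to 1.36), and S100a14 climbs from the 17th place to the 10th in cystic Pkd2 +/+ kidney.

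At the other end, *S100a7l2* and the pseudogene *S100a11-ps* had no read in any mouse, *Anxa10* at most 1 and *S100a2* at most 5. These 4 fell under the cutoff on low counts (mean log2 CPM of at least -3), which left 31 genes of the set among 24642 tested. Another 9 passed with at most 30 reads in any mouse: *S100a3*, *S100a4*, *S100a5*, *S100a7a*, *S100a8*, *S100a9*, *S100z*, *Anxa13* and *Anxa11os*, and for these only very large differences were detectable at this depth. In contrast, 19 genes had at least 100 reads in every mouse. *S100a4*, often used as a fibroblast marker, had 0 to 4 reads per mouse. Of its exon bases 51.7% lie under the gene model *Gm42674* on the same strand, which itself had 0 reads in all mice. Among genes at least 90% under a same-strand gene 84.3% had no read, against 18.8% of genes with under 1% shared. Reads on the shared bases may therefore be missing from both genes, and the count of *S100a4* may understate its level.

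The first comparison asks which of these genes differ with cystic disease while *Pkd2* keeps its miR-17 motif. Of the 31 tested, 14 were higher in cystic *Pkd2* +/+ kidney, 2 were lower and 15 were not called (edgeR's quasi-likelihood test, Benjamini-Hochberg adjusted p under 0.05, 3 against 3 mice). Over all genes tested 16.9% were higher and 14.2% lower. The median log2 change was 0.33 over the 31 genes and 0.02 over all genes. Genes with an annexin name moved 1 way: 8 of 12 tested were higher and 0 were lower, with a median of 0.72, whereas 4 of 17 tested genes with an S100 name were higher and 2 lower, with a median of -0.01. At an unadjusted p under 0.05 no annexin was lower either, and limma-trend with library totals and DESeq2 called none lower. With library totals in place of TMM the median of all genes shifted by 0.158 on the log2 scale, calls over all genes went from 4170 higher and 3495 lower to 6251 and 2468, and the set gained *S100a10*, *S100pbp*, *Anxa7* and *Anxa11os* as higher and lost *S100b*. In bulk kidney fewer cells of a type and less RNA per cell cannot be told apart.

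*S100a14*, an epithelial S100 protein, had the largest change of the tested genes of the set (ENSMUSG00000042306, chr3:90526856-90528837, plus strand). It read 8.62, 11.7 and 7.63 CPM in the noncystic and 115, 138 and 134 CPM in the cystic *Pkd2* +/+ mice. Every cystic mouse stood far above every noncystic one. The difference was 3.79 on the log2 scale (SE 0.16), or 13.8-fold, with an adjusted p of 5.66e-10 by edgeR's quasi-likelihood test. It was called in each of the 20 alternative settings, between 3.65 and 3.96.

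*S100a11*, the partner of annexin A1, and *Anxa1* itself rose by similar amounts. *S100a11* read 179, 197 and 139 CPM in noncystic and 453, 529 and 548 CPM in cystic kidney, without overlap. That was 1.57 on the log2 scale (SE 0.14, 2.97-fold, adjusted p 3.25e-07 by edgeR). *Anxa1*, whose protein limits phospholipase A2 activity and inflammation, read 43.3, 54.5 and 36.0 CPM against 121, 169 and 132 CPM, again without overlap. It rose by 1.66 (SE 0.15, 3.16-fold, adjusted p 5.17e-07 by edgeR). The TPM ratio of *Anxa1* to *S100a11* was 0.0455 ± 0.00303 (SD, n = 3) without and 0.0485 ± 0.00699 with cystic disease, and the ranges overlapped.

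The other classical pair did not move in step. *Anxa2* read 190, 246 and 177 CPM in noncystic and 341, 480 and 404 CPM in cystic kidney, an increase of 1.0 on the log2 scale (SE 0.13, 2.0-fold, adjusted p 1.54e-05 by edgeR). *S100a10*, which binds annexin A2 in a tetramer of both, read 136, 141 and 112 CPM against 136, 182 and 159 CPM. These groups overlapped, the difference was 0.30 (95% interval 0.04 to 0.55) and the adjusted p was 0.0714 by edgeR. The TPM ratio of *Anxa2* to *S100a10* within a mouse lay at 0.456 to 0.567 in noncystic kidney but 0.816 to 0.855 in cystic kidney, without overlap. *S100a10* was called with library totals (0.46, adjusted p 0.00555 by edgeR), with no cutoff on low counts, and without mouse 25 (0.40).

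*Ahnak*, the scaffold of this complex, rose as strongly as *Anxa1*. It read 241, 231 and 263 CPM in noncystic and 861, 739 and 705 CPM in cystic kidney. Each cystic mouse was above each noncystic mouse, and the change was 1.65 on the log2 scale (SE 0.13, 3.14-fold, adjusted p 9.1e-08 by edgeR). Its smaller-expressed relative *Ahnak2* read 1.71, 2.40 and 1.32 CPM against 6.08, 9.74 and 6.69 CPM. The groups were apart by 2.05 on the log2 scale (SE 0.32, adjusted p 9.53e-05 by edgeR).

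The remaining called annexins rose by less. *Anxa9*, an annexin with atypical calcium binding, had group means of 10.8 and 24.9 CPM and rose by 1.2 (SE 0.21). *Anxa11*, which links RNA granules to lysosomes, rose by 0.96 (SE 0.10). Its antisense RNA *Anxa11os*, at 0 to 13 reads, shares exon bases with it (4.6% of *Anxa11os* and 2.7% of *Anxa11*). Of genes at least 90% under an opposite-strand gene 83.9% had no read, so reads on the shared bases may be missing from both. *Anxa6*, *Anxa3* and *Anxa5*, the last a phosphatidylserine binder known from apoptosis assays, rose by 0.74, 0.70 and 0.66. *Anxa4* rose by 0.33 (SE 0.07), from 106, 109 and 107 CPM to 138, 140 and 127 CPM. All 6 were apart between the groups. *Anxa7* did not pass the test (0.07, 95% interval -0.08 to 0.21), nor did *Anxa8* (-0.12, interval -0.87 to 0.64) or *Anxa13* (-0.33, interval -1.05 to 0.40).

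**Figure D2:**
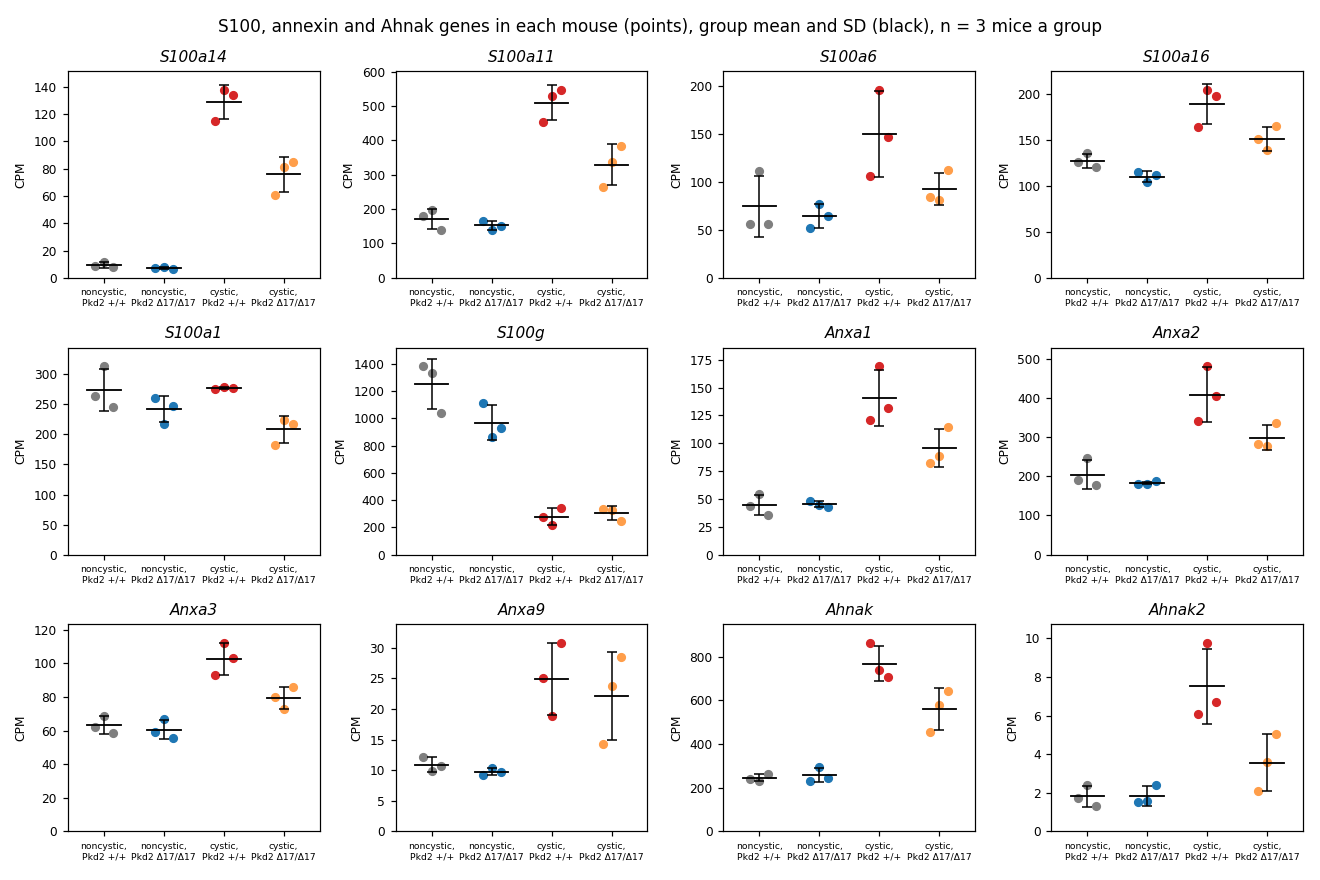
CPM after TMM scaling (y axis, from 0) in each of the 12 mice for 12 genes of the set, by group; black lines are the group mean and SD of 3 mice. S100a14, S100a11, Ahnak, Anxa1 and Anxa2 stand lowest in both noncystic groups, highest in cystic Pkd2 +/+ mice and in between in cystic Pkd2 Δ17/Δ17 mice, whereas S100g is low in both cystic groups.

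*S100g* went the other way. It read 1380, 1330 and 1040 CPM in noncystic and 277, 217 and 339 CPM in cystic kidney, without overlap. It fell by 2.17 on the log2 scale (SE 0.17, to 0.222 of the noncystic level, adjusted p 8.6e-08 by edgeR). *S100b*, best known from glia, was the other lower gene, with only 5 to 83 reads per mouse. It read 2.75, 4.73 and 1.12 CPM against 1.2, 0.881 and 1.18 CPM, so the groups overlapped. Its change of -1.38 (SE 0.46, adjusted p 0.0311 by edgeR) was no longer called without mouse 19, 20, 26 or 27, with values from -1.44 to -0.84. Of the Schwann cell markers *Mbp* was higher in cystic kidney (29.1 ± 2.24 against 57.1 ± 1.7 CPM, SD, n = 3), while *Sox10*, at 0.568 ± 0.211 against 0.162 ± 0.117 CPM, did not pass the test. Their part in the *S100b* value was not tested.

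*S100a16*, an S100 protein with 1 functional calcium site per subunit and the next gene along from *S100a14*, read 126, 136 and 121 CPM in noncystic and 164, 205 and 198 CPM in cystic kidney. These groups were apart, and the rise was 0.56 on the log2 scale (SE 0.09, adjusted p 0.000151 by edgeR). *S100a6*, or calcyclin, read 56.2, 111 and 56.0 CPM against 106, 196 and 147 CPM. Mouse 20 of the noncystic group overlapped mouse 25 of the cystic group. The change was 1.01 (SE 0.25, adjusted p 0.00424 by edgeR), from 0.77 to 1.39 over the alternative settings. The 5 urothelial markers summed to 141 CPM in mouse 20 and 112 CPM in mouse 26, the highest *S100a6* mouse of each group, and to 46.7, 88.3, 10.2 and 43.6 CPM in mice 19, 21, 25 and 27. In noncystic *Pkd2* Δ17/Δ17 kidney the highest *S100a6* mouse, mouse 23 (76.9 CPM), also had the highest urothelial sum (117 CPM). In cystic *Pkd2* Δ17/Δ17 kidney it was the reverse, as mouse 30 had the highest *S100a6* (112 CPM) and the lowest sum (34.7 CPM). The part of urothelium in the *S100a6* values was not tested.

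Neighbours on chromosome 3 did not change together with cystic disease in *Pkd2* +/+ mice. *S100a1*, *S100a13*, *S100a14* and *S100a16* lie within 32.1 kb. *S100a1*, a calcium sensor best known from muscle, read 264, 313 and 246 CPM in noncystic and 276, 279 and 277 CPM in cystic *Pkd2* +/+ mice. Its difference was 0.02 (95% interval -0.20 to 0.23), and that of *S100a13* was -0.23 (interval -0.51 to 0.05). The intervals of *S100a1* and *S100a13* lay below that of *S100a14* (3.46 to 4.12). Between the cystic groups, the third comparison below, *S100a1* (-0.42), *S100a13* (-0.32), *S100a14* (-0.77) and *S100a16* (-0.32) were all lower with the deletion. *S100a13* and *S100a16* did not pass the test there. *S100a3*, *S100a4* and *S100a5*, with at most 12 reads in any mouse, had intervals wider than 3 log2 units.

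**Figure D3:**
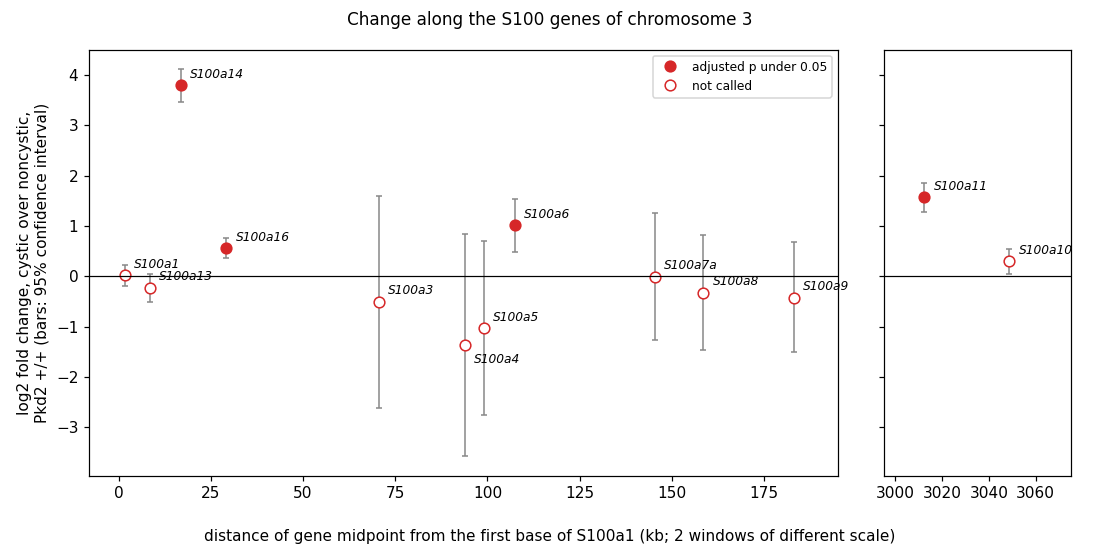
Log2 fold change, cystic over noncystic Pkd2 +/+ kidney (y axis, bars are 95% confidence intervals), against the distance of each gene's midpoint from the first base of S100a1 (kb, in 2 windows of different scale); filled points passed an adjusted p under 0.05. S100a14 at 3.79 stands between S100a13 at -0.23 and S100a16 at 0.56.

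*S100a8* and *S100a9*, which make up calprotectin and are abundant in neutrophils, stayed at the floor. *S100a8* had 4 to 23 reads and *S100a9* 6 to 27 reads per mouse. Their differences were -0.33 (95% interval -1.47 to 0.82) and -0.42 (interval -1.51 to 0.68). The 9 neutrophil markers together summed to 2.34 to 4.62 CPM in all 12 mice. Of the 7 that could be tested, edgeR, limma-trend and DESeq2 each called 0 in this comparison, and 2 had an unadjusted p under 0.05, 1 higher and 1 lower. The defining marker *Ly6g* averaged 0.0346 CPM in the noncystic and 0.0258 CPM in the cystic *Pkd2* +/+ mice.

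Markers of other cell types moved with the disease. All 6 macrophage markers were higher, with sums of 121 to 127 CPM in noncystic and 283 to 392 CPM in cystic *Pkd2* +/+ mice. Of the 6 injured tubule markers 5 were higher (summed 1270 to 1450 against 2180 to 3050 CPM), among them *Lcn2*. All 6 proximal tubule markers were lower (6670 to 8250 against 2530 to 3490 CPM), as were 4 of 5 markers of the thick ascending limb and distal convoluted tubule and all 4 podocyte and all 4 red blood cell markers. Of the collecting duct markers 2 of 5 were higher (851 to 998 against 918 to 2360 CPM), of the fibroblast markers 1 was higher and 2 lower of 5, and of the endothelial markers 2 of 4 were lower. The part of these shifts in the S100 and annexin values was not tested.

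The genes that work beside the set also differed in part. Of 5 receptors of extracellular S100 proteins and annexin A1, *Tlr4* was higher (0.45, adjusted p 0.0486 by edgeR, but 0.0543 by DESeq2 and 0.00821 by limma-trend with library totals) and *Bsg*, or basigin, lower (-0.42, adjusted p 0.000844), and *Ager*, *Fpr1* and *Fpr2* did not pass the test. Among genes of plasminogen activation, which the annexin A2 and S100A10 complex promotes at the cell surface, the inhibitor *Serpine2* was higher (0.72) and the activator *Plat* lower (-0.53). Of 11 partners in membrane repair and calcium-dependent binding, 7 passed the test, 6 of them higher, led by the calpain *Capn1* (1.06), the ferlin *Myof* (0.99) and the nonmuscle myosin *Myh9* (0.89). With limma-trend and library totals 9 of the 11 were higher and 0 lower.

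Of 7 genes of renal calcium transport listed beside *S100g*, 2 were higher and 2 lower. *Calb1*, the larger calbindin of the distal tubule, fell by 1.80 on the log2 scale (SE 0.20, adjusted p 3.94e-06 by edgeR), from 490 ± 68.8 to 140 ± 38.4 CPM (SD, n = 3). *Vdr*, the vitamin D receptor, fell by 0.82 (SE 0.13). The apical calcium channel *Trpv6* rose by 3.17 (SE 0.20, adjusted p 1.74e-08 by edgeR), from 5.94 ± 0.416 to 53.6 ± 4.44 CPM, and *Trpv5*, the other apical channel, by 1.11 (SE 0.20). The 2 intracellular calcium buffers were lower and the 2 entry channels higher in the same kidneys.

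The second comparison asks the same of mice that lack the *Pkd2* motif, and it shares no mouse with the first, although both draw on 1 estimate of the spread. Of the 31 tested genes, 12 were higher and 2 lower in cystic than in noncystic *Pkd2* Δ17/Δ17 kidney, against 12.8% and 10.2% over all genes tested. The median log2 change was 0.37 over the set and 0 over all genes. All 14 were among the 16 called with *Pkd2* +/+ (87.5% of those 16 and 100% of the 14), and all 14 had the same direction. *Anxa4* and *S100a6* were called with *Pkd2* +/+ and not here by edgeR with TMM. *Anxa4* was called here with library totals (0.18, adjusted p 0.0492 by edgeR and 0.0479 by limma-trend), and *S100a6* with only the compared groups fitted (0.52, adjusted p 0.0189 by edgeR). The count of higher genes ran from 11 to 15 over the alternative settings.

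*S100a14* again led. It read 7.14, 7.64 and 6.22 CPM in noncystic and 60.7, 81.6 and 85.0 CPM in cystic *Pkd2* Δ17/Δ17 mice. The groups were far apart, by 3.44 on the log2 scale (SE 0.16, 10.8-fold, adjusted p 5.31e-09 by edgeR). *S100g* read 1110, 859 and 930 CPM against 338, 327 and 249 CPM, and fell by 1.67 (SE 0.16, adjusted p 2.47e-06 by edgeR). *Ahnak* rose from 233, 295 and 244 CPM to 457, 579 and 644 CPM, without overlap, which was 1.12 (SE 0.12, adjusted p 8.18e-06 by edgeR).

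*S100a11* rose by 1.11 (165, 140 and 152 against 265, 338 and 383 CPM), *Anxa1* by 1.07 (48.5, 44.9 and 42.7 against 82.5, 89.0 and 115 CPM) and *Anxa2* by 0.71 (180, 181 and 187 against 282, 278 and 336 CPM). In none of these 3 did the groups overlap. *Anxa9* rose by 1.18, *Anxa6* by 0.74, *Anxa11* by 0.67, *Anxa5* by 0.54, *S100a16* by 0.46 and *Anxa3* by 0.39, each called in all 20 alternative settings. *Anxa4*, at 115, 106 and 116 against 115, 112 and 116 CPM, differed by 0.03 (95% interval -0.12 to 0.17). *S100a6* differed by 0.52 (interval 0.00 to 1.05, adjusted p 0.149 by edgeR).

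The 2 weakest calls rested on few reads. *Ahnak2* read 1.53, 1.58 and 2.42 CPM in noncystic and 2.07, 3.57 and 5.05 CPM in cystic mice, and the groups overlapped. Its change of 0.95 (adjusted p 0.0457 by edgeR) was lost without mouse 19, 22, 23, 27, 29 or 30, down to 0.61. *S100b* was at 1.69, 2.13 and 0.825 against 0.673, 0.245 and 0.722 CPM, and its change of -1.49 (adjusted p 0.049 by edgeR) was lost without mouse 19, 22, 23, 27, 28, 29 or 30, with values from -1.74 to -1.14. Without mouse 20 the number of lower genes was 4 in place of 2, with *S100a13* (-0.32) and *Anxa8* (-0.91) added. *Anxa8* was also called lower by DESeq2 (-0.93, adjusted p 0.033).

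Of the genes that work beside the set, *Bsg* was lower (-0.33) in these mice among the 5 receptors, *Serpine2* was higher (0.69) and *Plat* lower (-0.47). The calls of *Bsg* and *Plat* were lost with limma-trend and library totals (adjusted p 0.0792 and 0.15). Of 11 repair partners 4 were higher by edgeR and by DESeq2, but 10 by limma-trend with library totals. Of the calcium transport genes *Trpv6* was higher (2.48) and *Calb1* (-1.27) and *Vdr* (-0.80) were lower.

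Markers of other cell types moved with the disease in the *Pkd2* Δ17/Δ17 mice as well. All 6 macrophage markers were higher (summed 112 to 134 CPM in noncystic against 215 to 271 CPM in cystic mice), whereas all 6 proximal tubule markers (7650 to 8510 against 3360 to 4630 CPM), all 4 podocyte markers (492 to 558 against 236 to 311 CPM) and all 4 red blood cell markers (435 to 992 against 197 to 267 CPM) were lower. Of the thick ascending limb and distal convoluted tubule markers 2 of 5 were lower (3730 to 4670 against 3380 to 3580 CPM), as were 2 of 4 endothelial markers. Of the 5 collecting duct and of the 5 fibroblast markers 2 each were higher, and of the 6 injured tubule markers 1 was higher and 1 lower. Of the 7 neutrophil markers tested 1 was higher, *Csf3r* (0.83, adjusted p 0.0469 by edgeR), while *S100a8* and *S100a9* did not pass the test. The part of these shifts in the S100 and annexin values was not tested.

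**Figure D4:**
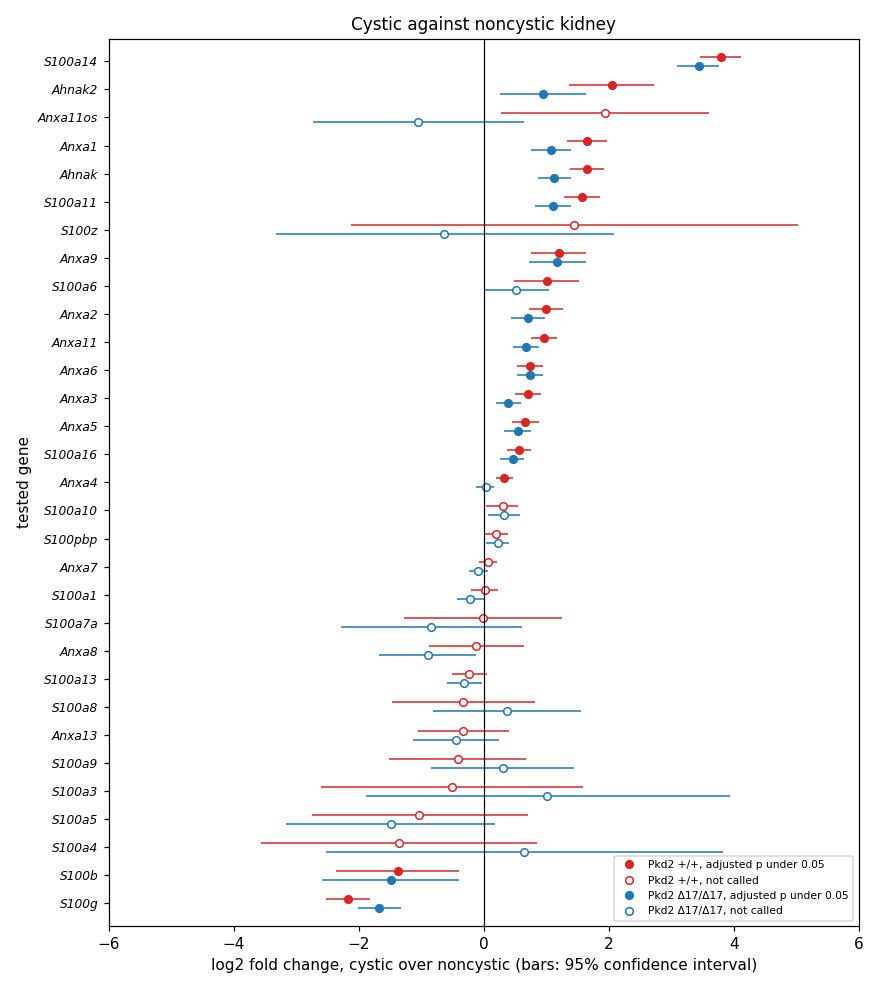
Log2 fold change, cystic over noncystic (x axis, bars are 95% confidence intervals), of the 31 tested genes (y axis, in order of the change in Pkd2 +/+ mice), in red for Pkd2 +/+ and in blue for Pkd2 Δ17/Δ17; filled points passed an adjusted p under 0.05. S100a14 stands at 3.79 and 3.44, S100g at -2.17 and -1.67, and most annexins between 0 and 2.

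The third comparison asks how deletion of the *Pkd2* motif changes these genes in cystic kidney. Of the 31 tested, 0 were higher and 3 lower in *Pkd2* Δ17/Δ17 than in *Pkd2* +/+ cystic mice by edgeR's quasi-likelihood test. Over all genes tested 1.19% were higher and 1.04% lower. The median log2 difference was -0.32 over the set and 0 over all genes. At an unadjusted p under 0.05, 15 of the 31 were lower and 0 higher, against 7.17% lower over all genes tested. DESeq2 and limma-trend also called 0 higher. In 14 of the 31 each *Pkd2* Δ17/Δ17 mouse was below each *Pkd2* +/+ mouse, which was so for 10.2% of all genes tested. The cystic *Pkd2* +/+ mice are also the cystic side of the first comparison, and the *Pkd2* Δ17/Δ17 mice that of the second, so these values stand beside the earlier ones and are no independent evidence.

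*S100a14* was lower with the deletion. The 3 *Pkd2* Δ17/Δ17 mice (60.7, 81.6 and 85.0 CPM) were all below the 3 *Pkd2* +/+ mice (115, 138 and 134 CPM), by 0.77 on the log2 scale (-0.77, SE 0.13, fold 0.588, adjusted p 0.00828 by edgeR). It was the only gene of the set called in all 20 alternative settings for this comparison, between -0.86 and -0.63. *S100a11* was lower as well, at 265, 338 and 383 against 453, 529 and 548 CPM, without overlap. Its difference of -0.63 (SE 0.14, fold 0.644, adjusted p 0.0222 by edgeR) was lost with only the compared groups in the fit and without mouse 26, 27, 28 or 29, where it lay between -0.65 and -0.50.

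*S100a1*, which did not pass the test in either disease comparison, was the last called gene. It read 183, 224 and 218 CPM with the deletion and 276, 279 and 277 CPM without it. The groups did not overlap, and the 3 *Pkd2* +/+ mice were within 3 CPM of each other. The difference was -0.42 (SE 0.10, fold 0.749, adjusted p 0.0417 by edgeR). It was lost with only the compared groups in the fit and without mouse 19, 24, 25, 26, 27, 28 or 29, between -0.47 and -0.33.

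Several others lay just outside the threshold, by edgeR's quasi-likelihood test. *Anxa3* differed by -0.37 (adjusted p 0.0505), *Anxa1* by -0.56 (0.0602), *Ahnak* by -0.46 (0.0674), *Ahnak2* by -1.07 (0.0789), *Anxa4* by -0.24 (0.0833), *Anxa2* by -0.45 (0.0841), *S100a16* by -0.32 (0.0879) and *Anxa7* by -0.24 (0.0909). All but *S100a16* were without overlap between the groups. The count of lower genes moved with the setting. It was 11 with DESeq2, 5 of them annexins, 8 without mouse 25 or 30, 5 without mouse 20, and 1 (*S100a14*) without mouse 26, 27, 28 or 29. It was also 11 with no cutoff on low counts, a fit that in effect took the spread of each gene from genes of like level alone (266000 degrees of freedom against 16.1 with the cutoff), so that the SE of *S100a6* was 0.0897 in place of 0.243.

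*S100g* did not follow this pattern. It read 338, 327 and 249 CPM with the deletion and 277, 217 and 339 CPM without, a difference of 0.13 (95% interval -0.20 to 0.47), and the groups overlapped. *Anxa6* (-0.11, interval -0.32 to 0.09), *Anxa9* (-0.17, interval -0.60 to 0.26) and *Anxa11* (-0.14, interval -0.35 to 0.07) did not pass the test either. *S100a6* differed by -0.69 (adjusted p 0.173 by edgeR), with mouse 30 at 112 CPM overlapping mouse 25 at 106 CPM.

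Beside the set, *Trpv6* was the 1 called gene of the calcium transport list, lower by 0.75 on the log2 scale (-0.75, SE 0.18, adjusted p 0.0342 by edgeR). Of the 5 receptors and 11 repair partners edgeR and limma-trend with library totals called 0 and DESeq2 called 1 lower repair partner, with 0 and 3 at an unadjusted p under 0.05. Of the macrophage markers 3 of 6 were lower (summed 215 to 271 against 283 to 392 CPM), as were 3 of 6 injured tubule markers (1440 to 2680 against 2180 to 3050 CPM), and 3 of 6 proximal tubule markers were higher (3360 to 4630 against 2530 to 3490 CPM). The thick ascending limb and distal convoluted tubule markers summed to 3380 to 3580 CPM with the deletion and 1810 to 2420 CPM without it, with no overlap, and 1 of the 5 was higher, the cotransporter *Slc12a1* (0.93, adjusted p 0.000704 by edgeR). Of the collecting duct, podocyte, fibroblast, endothelial, red blood cell, urothelial and neutrophil markers edgeR called 0. The part of these shifts in the differences of the set was not tested.

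The fourth comparison asks the same in noncystic kidney, where 0 of the 31 genes were called by edgeR, limma-trend or DESeq2. Over all genes tested 0.00406% were called by edgeR in either direction. At an unadjusted p under 0.05 there were 5 of 31, against 6.31% over all genes. They were *S100a14* (-0.41, 95% interval -0.77 to -0.05), *S100g* (-0.37, interval -0.71 to -0.04), *S100a10* (-0.26, interval -0.52 to -0.01), *S100a16* (-0.21, interval -0.41 to -0.02) and *S100a4* (-2.77, at 0 to 4 reads). *Anxa1* (0.03, interval -0.30 to 0.35) and *Ahnak* (0.07, interval -0.19 to 0.33) carry the 2 seed matches printed above, and neither passed the test. In cystic kidney both were lower with the deletion (-0.56 and -0.46), not called by edgeR but called by DESeq2 (adjusted p 0.0122 and 0.00887). *S100a14*, *S100a11* and *S100a1*, which edgeR called lower there, hold no seed match. The part of the seed matches in these differences was not tested.

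Whether the deletion changed the disease difference itself was tested as an interaction. None of the 31 genes passed by edgeR with the cutoff, limma-trend or DESeq2, and over all genes tested 0.0122% did by edgeR in either direction. At an unadjusted p under 0.05 there were 8 of 31, against 8.33% over all genes. The 8 were *Anxa4* (-0.30), *Ahnak* (-0.53), *Anxa1* (-0.59), *Anxa11os* (-2.99), *S100a11* (-0.46), *Ahnak2* (-1.10), *Anxa3* (-0.31) and *S100g* (0.51). For *S100a14* the interaction was -0.36 (95% interval -0.82 to 0.10) and for *Anxa6* 0.00 (interval -0.29 to 0.30). A disease difference called with *Pkd2* +/+ and not with *Pkd2* Δ17/Δ17, as for *Anxa4* and *S100a6*, was therefore not shown to differ between the genotypes.

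**Figure D5:**
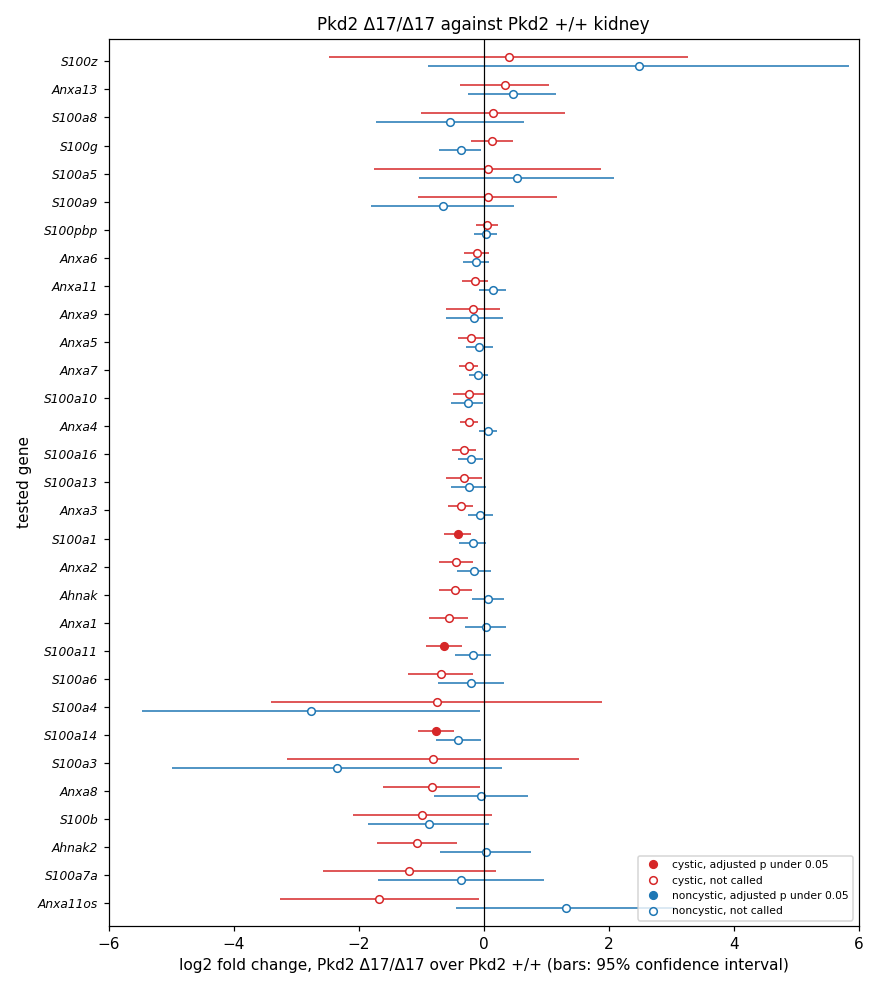
Log2 fold change, Pkd2 Δ17/Δ17 over Pkd2 +/+ (x axis, bars are 95% confidence intervals), of the 31 tested genes (y axis, in order of the change in cystic mice), in red for cystic and in blue for noncystic kidney; filled points passed an adjusted p under 0.05. The 3 filled points, S100a14, S100a11 and S100a1, are in cystic kidney and below 0.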

How the data were processed

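The authors trimmed reads with Trim Galore 0.6.3, aligned them to GRCm38 with STAR 2.5.3a and deposited raw read counts per gene (Ensembl 94 models), which were used unchanged; all 12 mice were used. No strand setting was given in the sources used here. Of genes with at least 90% of their exon bases under an opposite-strand gene 83.9% had no read, against 84.3% under a same-strand gene and 18.8% with under 1% of their bases shared, so counts were treated as unstranded. Genes without a name took 0.0225% of reads.

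Genes with a mean log2 CPM of at least -3 (24642) were fitted in 1 edgeR 4.0.16 model (R 4.3.3, TMM, quasi-likelihood F test, 4 group means, 8 degrees of freedom left for the spread), and p-values were adjusted over all genes by Benjamini-Hochberg and called under 0.05. Called genes are given with their values, the others by range. The authors' own test, limma-trend (limma 3.58.1, with library totals), and DESeq2 1.42.0, other scalings and cutoffs, the compared groups alone, Xist as a covariate and leaving out each mouse were alternatives. The scripts were checked on simulated counts. TPM used GENCODE M21 exon lengths, with all 35 genes matched. No 2 mice of a group agreed within sampling noise (chi-square per degree of freedom 9.65 to 26.8), and litters were not stated. Members, lists and tests were chosen with earlier results of these data known. Protein sequences were not used here. A few listed genes are not reported here.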

Additional observations from a re-analysis of the deposited data

How the results depend on the processing

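Of 33 called values of single genes, 28 were called in all 20 alternative settings and 0 changed sign. The 5 that were lost in some were *S100b* in both disease comparisons, *Ahnak2* with *Pkd2* Δ17/Δ17, and *S100a11* and *S100a1* between the cystic groups. In cystic against noncystic *Pkd2* +/+ kidney the 2 lower genes became 1 with limma-trend and library totals and 1 with library totals in edgeR, and were 1 to 2 with a mouse left out, while the 14 higher genes were 14 to 18 over all settings. With *Pkd2* Δ17/Δ17 the 2 lower genes became 1 with limma-trend and library totals, 1 with library totals in edgeR and 1 with *Xist* as a covariate, 3 with DESeq2 and 3 with no cutoff on low counts (both adding *Anxa8*), and 1 to 4 with a mouse left out, while the 12 higher genes were 11 to 15 over all settings. Between the cystic groups the 3 lower genes became 11 with DESeq2, 11 with no cutoff on low counts, 5 with a mean log2 CPM of at least 0 and 1 with only the compared groups fitted, and were 1 to 8 with a mouse left out. The interaction called 1 higher gene (*S100g*) and 4 lower ones (*S100a6*, *S100a11*, *Ahnak* and *Anxa1*) with no cutoff on low counts and 0 otherwise. With no cutoff the fit in effect took the spread of each gene from genes of like level alone (266000 degrees of freedom against 16.1), which made adjusted p-values far smaller (*S100a6* between the cystic groups 2.94e-12 against 0.173), so its calls carry less weight. The cause of the other moves was not tested. No paired analysis was possible because the labels give each mouse a number of its own. With 3 mice a group, the standard error of a disease difference was typically 0.10 on the log2 scale for genes of the set over 100 CPM, whereas genes with at most 30 reads had errors that leave changes of several fold undetectable.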
